A study of Mus musculus with 5 samples.

Results

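Transcripts of 10 Notch pathway genes were measured in poly(A) RNA of whole mouse retina taken 7 days after birth. They are the receptors Notch1, Notch2 and Notch3, the ligands Dll1, Dll4 and Jag1, and the target genes Hes1, Hes5, Hey1 and Nrarp. The genes were chosen by symbol, through their Ensembl gene IDs, and all 10 members were found among the 43432 gene IDs in the counts. The data are 2 libraries labelled Mettl14 cko (a and b) and 3 control libraries labelled Ctrl (a, b and c). The usual reading of cko is conditional knockout. The name of the deposited counts also carries the abbreviations Six3, M3 and M14, which the labels do not explain. The labels give no allele, no driver of recombination and no genotype for the controls, and do not say whether each library came from a separate animal, so p-values measure the spread between these samples, which may be technical. By their sex-linked transcripts, 1 of the libraries labelled cko was female and 1 male, and 2 of the Ctrl libraries were female and 1 male, so sex also differs between cko a and cko b. Mettl14 encodes a partner of Mettl3 in the complex that adds the methyl group of m6A (N6-methyladenosine) to messenger RNA.

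Notch receptors are cleaved when a Delta or Jagged ligand on a neighbouring cell binds them, and the freed intracellular domain enters the nucleus and joins the DNA-binding protein Rbpj to switch on genes such as Hes and Hey. Hes and Hey proteins are transcriptional repressors of proneural genes. In the developing retina this signalling holds progenitor cells back from becoming neurons and favours Müller glia, while Dll4 and Jag1 act in the sprouting of blood vessels.

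Total counts were 25912136 and 26513127 in the libraries labelled cko, against 24315693 to 27100918 in the Ctrl libraries. Levels are given as CPM, a gene's count relative to the size of its library, with that size scaled by TMM, a method that lines libraries up on the bulk of their genes. Mettl14 had 55.6 and 44.8 CPM in cko a and b, as those libraries are called from here on, against 41.5, 46.7 and 38.7 CPM in Ctrl a, b and c, so its level was not lower in the libraries labelled cko (log2 fold change 0.25, SE 0.20, edgeR adjusted p = 0.640). Mettl3, the partner of Mettl14, stood at 65.6 and 52.0 CPM in cko a and b. Its Ctrl libraries a, b and c stood at 72.4, 71.3 and 66.0 CPM, all above both cko libraries, cko a by a small step. The difference for Mettl3 came to -0.25 on the log2 scale, with an SE of 0.19 and an edgeR p of 0.615 after adjustment. The labels do not say which exons of Mettl14 were removed, and directions below are those of the labels. The 8 retina markers all had counts and passed the filter on low counts. Lens markers summed to 68.7 and 22.1 CPM in cko a and b, against 746, 646 and 1411 CPM in Ctrl a, b and c. Blood markers summed to 127 and 40.9 CPM in cko a and b, against 170, 397 and 463 CPM in Ctrl a, b and c. Both sums were lower in each cko library than in any Ctrl library. In bulk RNA, fewer cells of a type and less RNA per cell cannot be told apart.

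For Hes5 and Nrarp, the only target genes for which it was at hand, the stretch just before the gene start is shown, with the word that Rbpj recognises. Both genes had lower means in the libraries labelled cko. The sequences are from RefSeq on GRCm38.p6, 250 bases ending at the base before the annotated start, at chr4:154960673-154960922 (plus strand) for Hes5 and chr2:25180508-25180757 (plus strand) for Nrarp. Capitals mark GTGGGAA or its reverse complement TTCCCAC.
Hes5: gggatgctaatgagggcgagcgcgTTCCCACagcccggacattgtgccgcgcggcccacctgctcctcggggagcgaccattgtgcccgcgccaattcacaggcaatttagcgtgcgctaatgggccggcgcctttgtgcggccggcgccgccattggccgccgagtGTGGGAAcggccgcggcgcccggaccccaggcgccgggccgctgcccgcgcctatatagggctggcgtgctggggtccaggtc
Nrarp: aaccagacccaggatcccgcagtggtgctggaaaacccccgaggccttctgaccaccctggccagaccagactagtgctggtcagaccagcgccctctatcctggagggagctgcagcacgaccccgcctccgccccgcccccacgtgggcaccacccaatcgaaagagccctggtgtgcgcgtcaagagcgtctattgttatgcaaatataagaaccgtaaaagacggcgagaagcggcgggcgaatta
The Hes5 stretch held 2 matches, starting 226 and 83 bases before the gene start and facing in opposite directions. The Nrarp stretch held 0. Of 32851 mouse promoter stretches of that length, 5.42% held at least 1 match on either strand and 0.161% held at least 2. Promoters were found for 8 of the members, in 9 stretches, and Hes5 had the 1 stretch with a match. No stretch was at hand for Hes1 and Hey1, so these targets were not searched. A word bound by Hes proteins, CACNAG on either strand, was present in the stretches of 5 members, and in 36.7% of all stretches. Nrarp and Notch3 held 2 matches each, and 8.18% of all stretches held 2 or more. Hes5 held no CACNAG. A match is a description of the letters and does not show binding.

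None of the members passed the test between the groups. At an adjusted p below 0.05 (edgeR quasi-likelihood F test, Benjamini-Hochberg over 17039 genes), 0 of the 10 members were called, against 0.0998% of all genes tested. At an unadjusted p below 0.05 there were 2 members, Hes1 and Hey1, both higher in the libraries labelled cko. The share of all genes at that p was 10.8%, and 5.45% were on the higher side. The log2 fold change, cko over Ctrl, was above 0 for 6 members and below 0 for 4. Its median was 0.15 over the members and -0.01 over all genes tested. DESeq2 and limma-voom also called 0 members. For Notch1, Notch2, Notch3 and Dll1, cko a was the lowest and cko b the highest of all 5 libraries.

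**Figure D1:**
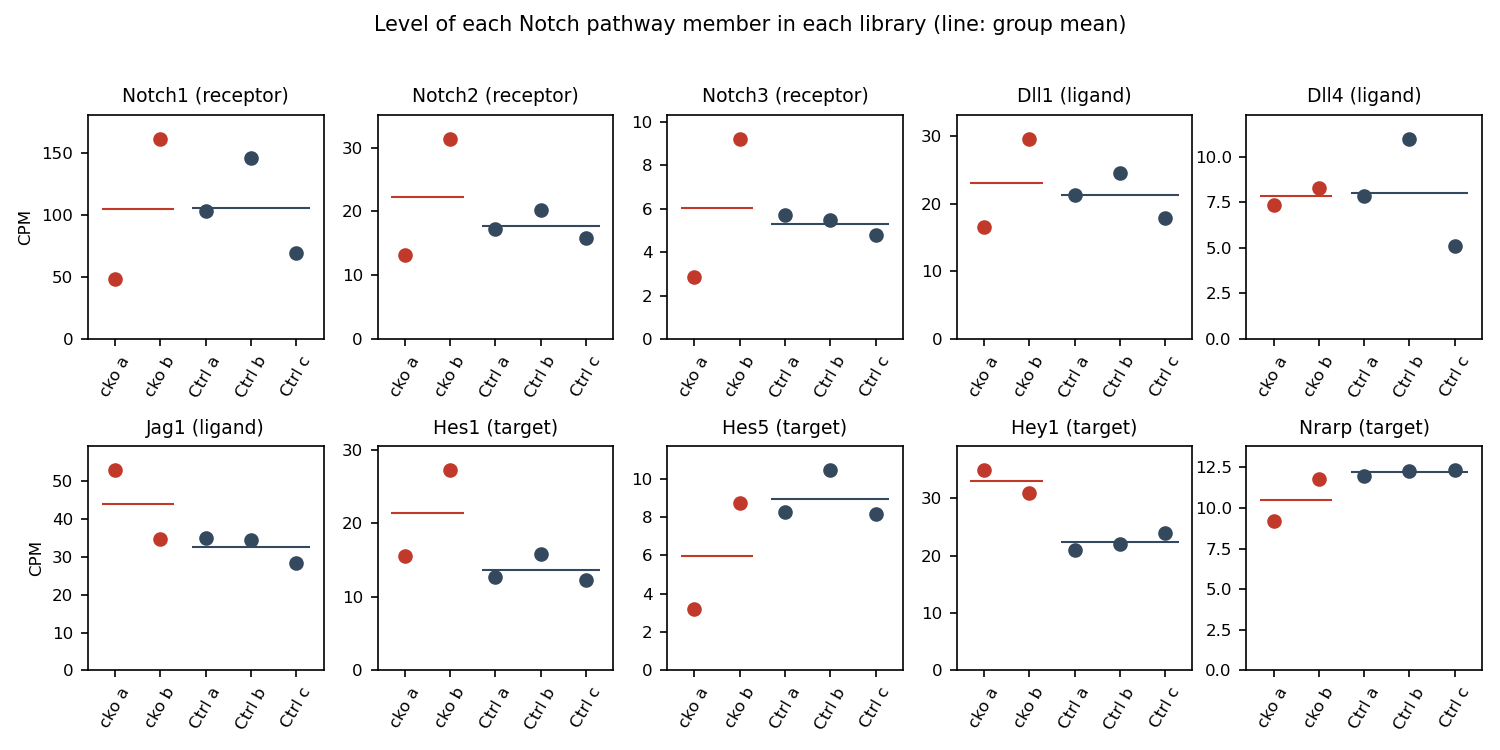
Level of each member in CPM (vertical axes, each from 0) in each library, cko in red and Ctrl in dark blue, with the group mean as a line. For Notch1, Notch2, Notch3 and Dll1 the 2 cko points lie on either side of the 3 Ctrl points, and for Hey1 both cko points lie above them.

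Notch1, the receptor with the highest level here, is encoded on chromosome 2 (chr2:26457903-26516663, minus strand, GRCm38, 40 merged exons). It had 48.7 and 162 CPM in cko a and b, against 103, 146 and 69.3 CPM in Ctrl a, b and c. All Ctrl libraries lay between the cko libraries: cko b was 3.32-fold above cko a, and the highest Ctrl library was 2.11-fold above the lowest. The means were 105 ± 80.0 CPM in cko (SD, n = 2) and 106 ± 38.4 CPM in Ctrl (SD, n = 3). On the log2 scale the difference was -0.01 (95% interval -0.93 to 0.91, SE 0.42, edgeR adjusted p = 0.995). A change of nearly 2-fold in either direction therefore lies inside the interval.

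Notch2 (chr3:98013527-98150361, plus strand), a receptor built like Notch1, had 13.1 and 31.4 CPM in cko a and b, against 17.3, 20.3 and 15.8 CPM in Ctrl a, b and c. Here the Ctrl libraries lay close together, within 1.28-fold, and the cko libraries lay on both sides of them, 2.39-fold apart. This gave a log2 fold change of 0.33 (SE 0.32; edgeR quasi-likelihood adjusted p = 0.698). Notch3 (chr17:32120820-32166852, minus strand), best known in the mural cells around blood vessels, had 2.83 and 9.24 CPM in cko a and b, against 5.71, 5.48 and 4.77 CPM in Ctrl a, b and c. The pattern was the same, with a spread of 3.26-fold between the cko libraries and 1.2-fold among the Ctrl libraries. For Notch3 the log2 fold change came to 0.19 (SE 0.40; edgeR quasi-likelihood adjusted p = 0.874). The lowest Notch3 value rests on 72 reads, for which counting error alone gives an SD of 11.8%.

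Differences between cko a and cko b as far from 0 as that of Notch1 were found for 1.33% of all genes tested, for Notch3 1.62% and for Notch2 4.97%. All 3 receptors had cko a lowest and cko b highest, an arrangement present in 7.00% of genes tested. Over all members, cko a was the lowest library in 6 and cko b the highest in 5, each of which held for 23.2% of genes tested. The 10 mural cell markers summed to 87.7 and 52.7 CPM in cko a and b, against 75.7, 66.2 and 96.8 CPM in Ctrl a, b and c, so that cko b was the lowest library for this sum. Without Rgs5, the most abundant of them, the sums were 15.2 and 13.3 CPM in cko a and b. Those of Ctrl a, b and c were 17.6, 16.3 and 21.8 CPM, all above both cko libraries. The 10 progenitor markers summed to 758 and 1050 CPM in cko a and b, against 980, 1165 and 976 CPM in Ctrl a, b and c, and cko a was the lowest library in 7 of them and cko b the highest in 3. Ccnd1, a cyclin that drives progenitor division and the most abundant marker of the list, had 132 and 225 CPM in cko a and b, against 269, 291 and 218 CPM in Ctrl a, b and c. The part of progenitor content in the receptor values was not tested.

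Dll1 (chr17:15367354-15376872, minus strand), a ligand made by newly forming neurons, had 16.6 and 29.6 CPM in cko a and b, against 21.2, 24.6 and 17.9 CPM in Ctrl a, b and c. It was the only ligand with the receptor pattern, cko a below and cko b above every Ctrl library. Dll1 had a log2 fold change of 0.12 (SE 0.28; edgeR quasi-likelihood adjusted p = 0.881). Dll4 (chr2:119325784-119335962, plus strand), the ligand of vessel tip cells, had 7.36 and 8.29 CPM in cko a and b, against 7.85, 11 and 5.13 CPM in Ctrl a, b and c. For Dll4 the order was the other way round: the cko libraries lay within 1.13-fold and the Ctrl libraries spread over 2.14-fold. Dll4 had a log2 fold change of -0.03 (SE 0.31; edgeR quasi-likelihood adjusted p = 0.973).

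Beside the Dll4 values, 10 endothelial markers summed to 282 and 355 CPM in cko a and b, against 181, 303 and 99.9 CPM in Ctrl a, b and c. Most of that sum was Kdr, a VEGF receptor counted here as an endothelial marker, at 233 and 317 CPM in cko a and b, against 136, 260 and 66.9 CPM in Ctrl a, b and c. The other 9 markers summed to 49.9 and 37.5 CPM in cko a and b, against 45.2, 43.3 and 33.0 CPM in Ctrl a, b and c, so the order of the whole sum is that of Kdr. Neither the part of vessel content in the Dll4 values nor the cells that made Kdr were tested. Jag1 (chr2:137081456-137116644, minus strand), a ligand of vessel stalk cells among others, had 52.9 and 34.7 CPM in cko a and b, against 34.8, 34.5 and 28.4 CPM in Ctrl a, b and c. One library, cko a, stood above the other 4, and cko b lay within the Ctrl range. Jag1 had a log2 fold change of 0.43 (SE 0.23; edgeR quasi-likelihood adjusted p = 0.505), which was 0.09 without cko a and 0.70 without cko b.

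Hes1 (chr16:30064384-30067796, plus strand), a repressor that keeps progenitors undifferentiated, had 15.5 and 27.3 CPM in cko a and b, against 12.7, 15.9 and 12.3 CPM in Ctrl a, b and c. The groups overlapped by a narrow margin, since Ctrl b lay just above cko a. The means were 21.4 ± 8.31 CPM in cko (SD, n = 2) and 13.6 ± 1.98 CPM in Ctrl (SD, n = 3), a 1.57-fold difference. Hes1 had a log2 fold change of 0.65 (95% interval 0.06 to 1.24, SE 0.27), with an edgeR p of 0.0344 before adjustment and 0.443 after it. Without cko b the log2 fold change was 0.19, and without cko a it was 1.0.

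Hes5 (chr4:154960923-154962371, plus strand), the other Notch-dependent Hes repressor of retinal progenitors, had 3.23 and 8.71 CPM in cko a and b, against 8.27, 10.5 and 8.17 CPM in Ctrl a, b and c. Only cko a was low, and cko b lay within the Ctrl range. Hes5 had a log2 fold change of -0.58 (95% interval -1.38 to 0.22, SE 0.37; edgeR quasi-likelihood adjusted p = 0.549). Without cko b it was -1.47, and without cko a it was -0.04, so the value rests on cko a, where Hes5 was counted 82 times.

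Hey1 (chr3:8663359-8667256, minus strand), a repressor related to Hes genes and prominent in vessels, had 34.9 and 31.0 CPM in cko a and b, against 21.0, 22.1 and 23.9 CPM in Ctrl a, b and c. It was the only member with both cko libraries above all Ctrl libraries, an arrangement found in 15.8% of all genes tested. The means were 33.0 ± 2.77 CPM in cko (SD, n = 2) and 22.3 ± 1.48 CPM in Ctrl (SD, n = 3), a 1.48-fold difference. Hey1 had a log2 fold change of 0.56 (95% interval 0.10 to 1.02, SE 0.21), with an edgeR p of 0.0207 before adjustment and 0.436 after it. It lay between 0.47 and 0.64 whichever library was left out.

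Nrarp (chr2:25180758-25183339, plus strand, 1 exon), a Notch target that feeds back to limit Notch signalling, had 9.17 and 11.8 CPM in cko a and b, against 12, 12.2 and 12.3 CPM in Ctrl a, b and c. Both cko libraries lay below the Ctrl libraries, cko b by a small step, an arrangement found in 13.7% of genes tested. Nrarp had a log2 fold change of -0.22 (SE 0.23; edgeR quasi-likelihood adjusted p = 0.717), which was -0.05 without cko a and -0.41 without cko b.

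**Figure D2:**
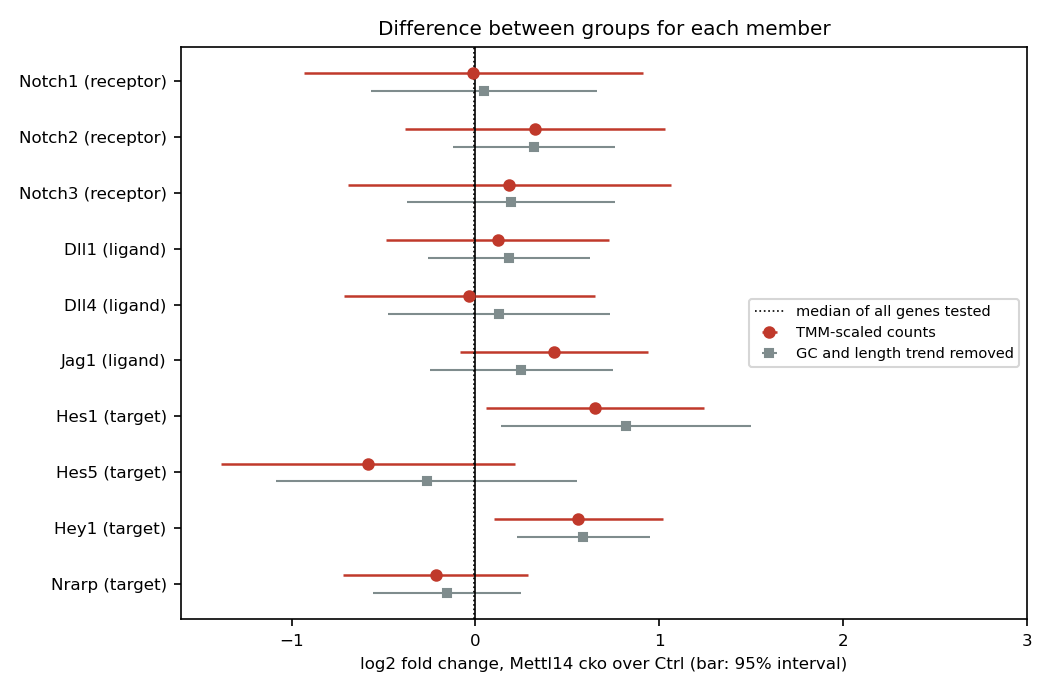
Log2 fold change, cko over Ctrl, with its 95% interval for each member (horizontal axis), from TMM-scaled counts in red and after removal of a transcript length and GC trend in grey. All intervals but those of Hes1 and Hey1 include 0, and the dotted line is the median of all genes tested, -0.01.

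Libraries differed along transcript length and base composition across the whole table, in both groups. The median log2 difference, cko a minus cko b, was 0.21 in the shortest of 4 equal bins by transcript length and -0.19 in the longest, and 0.24 in the lowest of 4 equal bins by GC content and -0.26 in the highest. It reached -0.79 over the 485 genes that were in both the longest and the highest GC bin. Against the mean of the Ctrl libraries, those genes had medians of -0.67 and 0.15 in cko a and b, against 0.08, 0.11 and -0.16 in Ctrl a, b and c. Ctrl b and Ctrl c also differed by length: against the Ctrl mean they had medians of -0.17 and 0.15 in the shortest bin and 0.15 and -0.14 in the longest. For GC, the medians in the highest bin were -0.36 and -0.08 in cko a and b, and between -0.05 and 0.06 in the Ctrl libraries. The members lie on the GC-rich side: 9 of 10 were above the median of 50.4% GC. Notch1, with a transcript of 9488 nucleotides at 57.1% GC, and Notch3, with 8016 nucleotides at 59.6% GC, belong to the 485 genes of the longest and highest GC bin.

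Both receptors lay beyond the median of their bin, with cko a minus cko b at -1.73 for Notch1 and -1.68 for Notch3. The spread of the genes within a bin was not computed, so how unusual these values are there is not known. Notch2 had -1.25, against a median of -0.57 over the 759 genes of its bin. Hes1 and Hes5 are among the shortest transcripts, where the bin medians were 0.22 and 0.12, and had -0.81 and -1.41. Jag1 went the other way, at 0.61 against -0.23 in its bin.

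**Figure D3:**
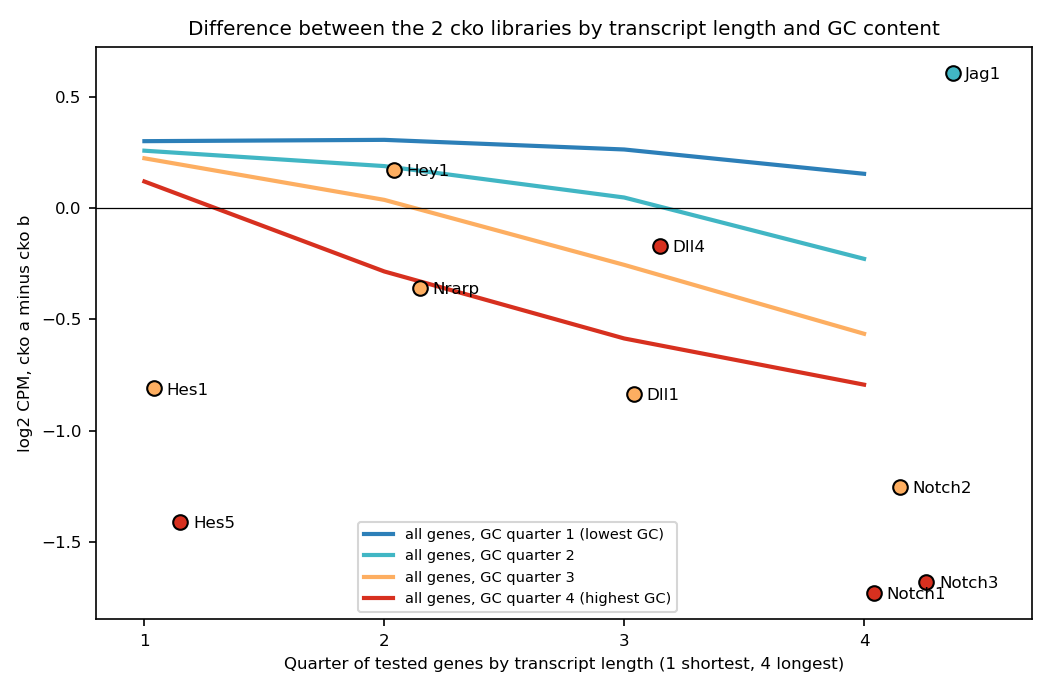
Difference in log2 CPM between cko a and cko b (vertical axis) by transcript length in 4 equal bins (horizontal axis). Lines are medians of all tested genes in each of 4 GC bins, and points are members in the colour of their GC bin, shifted sideways for legibility; Notch1 and Notch3 lie at -1.73 and -1.68, below the lowest line.

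A fit in which each library's trend with length and GC was removed was added after the data had been seen. The spread of the receptors over the 5 libraries, on the log2 scale, was then 0.89 for Notch1, 0.62 for Notch2 and 0.68 for Notch3, against 1.73, 1.25 and 1.68 without it. The spread of Hes1 was 1.56 and that of Hes5 1.45, against 1.15 and 1.67 without it. At least a 2-fold span over the libraries remained in 2 members, against 6 without the removal, where the shares of all genes tested were 22.9% with it and 30.1% without it. The members with cko a lowest and cko b highest numbered 2, against 4 without it, and the shares of all genes tested were 5.21% and 7.00%.

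With the trend removed, Hey1 had a log2 fold change of 0.59 (SE 0.16; edgeR quasi-likelihood adjusted p = 0.303) and Hes1 of 0.82 (SE 0.30; edgeR adjusted p = 0.347). The value for Hes5 was -0.27 (SE 0.37, edgeR adjusted p = 0.764). No member was called by edgeR, against 0.0998% of genes tested, and 2 had an unadjusted p below 0.05, against 13.0% of genes tested. The GGACT word, the letters in which m6A is most often placed (given as DNA, searched on the sense strand of each transcript), occurred at a median of 1.3 per kilobase in the members and 1.05 in the tested genes. Dll4 had the most, 2.67 per kilobase, and Nrarp the fewest, 0.775. A match is not a measured m6A site.

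Ratios between members were taken within each library. The count of Hes1 was 4.80 and 3.13 times that of Hes5 in cko a and b, against 1.53, 1.52 and 1.5 times in Ctrl a, b and c. Both cko libraries lay above all Ctrl libraries, whose 3 ratios were nearly equal. Neither gene was called alone. The ratio was raised through a different gene in each cko library. In cko a, Hes5 was low at 3.23 CPM, and Hes1, at 15.5 CPM, lay below Ctrl b at 15.9 CPM. In cko b, Hes1 was high at 27.3 CPM, and Hes5, at 8.71 CPM, lay within the Ctrl range. The mean log2 ratio was higher by 1.35 in cko, and the gap between the nearest libraries of the groups was 1.03. This pair was singled out of 45 pairs of members after the values were seen, so the ratio is given with no test. Of the 45 pairs, 12 did not overlap between the groups. The share over pairs of all tested genes was not computed, so the 12 are not read as a result about the members.

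Over all other genes tested, 34.5% had a Hes1 ratio that was higher in cko with no overlap, and 1.13% did so with a gap at least as wide as that to Hes5. Of all genes set over Hes5, 0.869% had such a gap. Hes1 over Hes5 had the widest gap of the 45 pairs and was picked for it, so these shares do not measure how rare it is. With the length and GC trend removed, the log2 ratio of Hes1 over Hes5 was 2.0 and 1.66 in cko a and b, against 0.73, 0.70 and 0.60 in Ctrl a, b and c, and the groups still did not overlap. The pairs that follow had the next widest gaps of the 45 and were also singled out after the values were seen, so they are described with no test. Notch2 over Hes5 and Dll1 over Hes1 each share a gene with Hes1 over Hes5. The ratio of Notch2 to Hes5 was 4.07 and 3.61 in cko a and b, against 2.09, 1.94 and 1.93 in Ctrl a, b and c. That of Hey1 to Nrarp was 3.81 and 2.63 in cko a and b, against 1.76, 1.80 and 1.94 in Ctrl a, b and c. Dll1 over Hes1 was lower, at 1.07 and 1.09 in cko a and b, against 1.67, 1.55 and 1.46 in Ctrl a, b and c. With the trend removed, the log2 ratio of Notch2 to Hes5 was 2.17 and 1.38 in cko a and b. It was 1.21, 0.77 and 1.3 in Ctrl a, b and c, so cko b lay just above Ctrl c. That of Dll1 over Hes1 was 0.32 and -0.19 in cko a and b, against 0.72, 0.42 and 0.84 in Ctrl a, b and c. There cko a lay just below Ctrl b. For Hey1 over Nrarp it was 1.84 and 1.43 in cko a and b, against 0.84, 0.88 and 0.94 in Ctrl a, b and c.

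**Figure D4:**
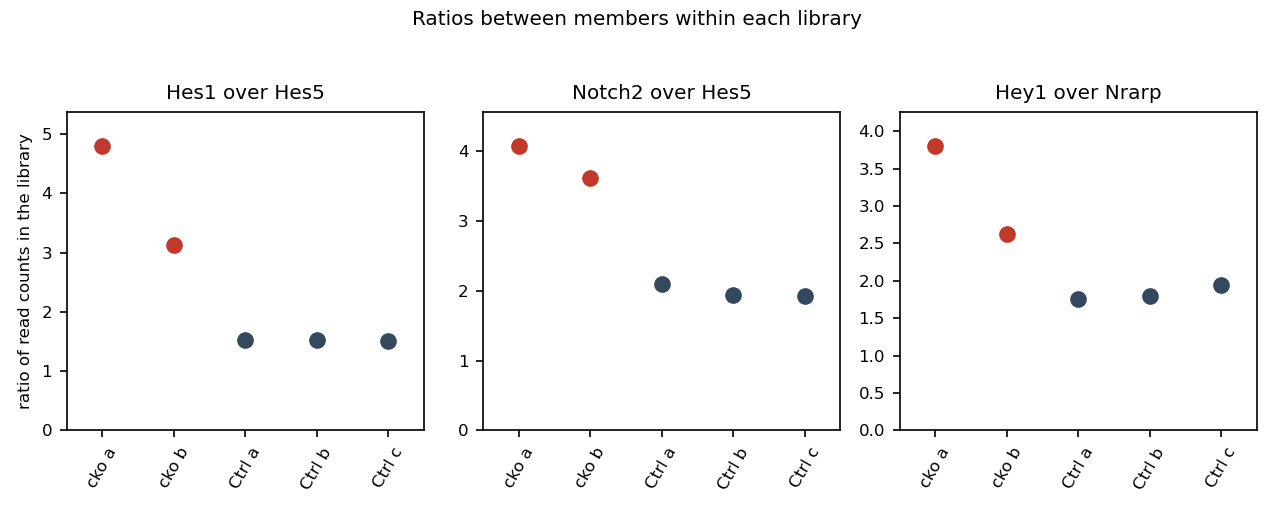
Ratio of read counts between members within each library (vertical axes, from 0), with cko in red and Ctrl in dark blue. For Hes1 over Hes5 the cko libraries are at 4.80 and 3.13 and the Ctrl libraries at 1.5 to 1.53. The pairs shown had the widest gaps between the groups and were singled out after the values were seen.

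Levels between genes were compared as CPM per kilobase of merged exons. In the libraries labelled cko the order of means was Hes1 at 10.5, Hey1 at 10.1, Jag1 at 7.51, Notch1 at 7.40, Dll1 at 5.47, Hes5 at 4.38, Nrarp at 4.06, Notch2 at 2.07, Dll4 at 2.03 and Notch3 at 0.746. In the Ctrl libraries it was Notch1 at 7.46, Hey1 at 6.84, Hes1 at 6.69, Hes5 at 6.58, Jag1 at 5.59, Dll1 at 5.03, Nrarp at 4.72, Dll4 at 2.07, Notch2 at 1.65 and Notch3 at 0.658. Few steps of these orders exceeded the spread between libraries. In cko the neighbours that did not overlap were Hey1 above Jag1, Nrarp above Notch2, and Dll4 above Notch3. In Ctrl they were Hes5 above Jag1, Nrarp above Dll4, and Notch2 above Notch3. Notch3 was the lowest per kilobase in both groups.

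For the 6 members that spanned at least 2-fold, the genes with the nearest profile over the 5 libraries were listed among 11115 named genes whose mean CPM was 5 or more. Nearness is the Euclidean distance between log2 CPM deviations from each gene's mean, over 5 libraries that share depth and composition differences. The nearest of so many genes lie far below the median because they were picked as the nearest, so the distances do not measure shared regulation. The part of the length and GC trend in these profiles was not tested. The nearest to Notch1 were Sipa1l1 (0.164), Sash1 (0.173) and Cacna1c (0.176), where the median gene lay at 1.57. For Notch2 they were Mgat5 (0.0899), Lhx2 (0.109), a transcription factor of retinal progenitors and Müller glia, and Lrtm2 (0.120), with a median of 1.08. For Notch3 they were Cacng2 (0.151), Gabbr2 (0.167) and Srgap1 (0.184), with a median of 1.35. Cacna1c encodes a calcium channel subunit, Gabbr2 a subunit of a GABA receptor and Cacng2 an auxiliary subunit of glutamate receptors. Those of Dll4 were Dusp16 (0.192), Atp6v0a2 (0.202) and Kcnab3 (0.209), with a median of 0.918. Hes1 had Ubtd2 (0.113), Pygo1 (0.138) and Olfml3 (0.158), with a median of 1.03. Hes5 had Pbxip1 (0.161), Rcc2 (0.186) and Tbx2 (0.228), with a median of 1.45.

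The rest of the pathway was read from 67 genes in 6 lists, of which 66 were tested (Hes3 was not, for low counts). None was called by edgeR, and the lowest adjusted p was 0.427. At an unadjusted p below 0.05, 4 were higher and 6 lower, 15.2% of the 66 against 10.8% of all genes tested, where 5.45% were higher and 5.36% lower. The median log2 fold change was -0.07, against -0.01 over all genes. The groups did not overlap for 10 genes on the higher side and 15 on the lower side, 37.9% of the 66 against 29.4% of all genes.

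Among the other receptor and ligands (8 tested), 2 had a log2 fold change above 0 and 6 below, with a median of -0.29. After removal of the length and GC trend, Notch4, Jag2 and Dlk2 moved from below 0 to 0.02, 0.22 and 0.17. Dner moved from just above 0 to -0.05. Dlk1, a non-canonical ligand, had 0.551 and 0.917 CPM in cko a and b, against 1.60, 2.15 and 1.94 CPM in Ctrl a, b and c. Both cko libraries were below all Ctrl libraries, at a low level (log2 fold change -1.36, SE 0.39, edgeR adjusted p = 0.427). Of the 9 sugar transferases and ubiquitin ligases that fit receptors and ligands for signalling, 3 were above 0 and 6 below, with a median of -0.35. Of those below 0, Lfng, Rfng and Mib2 moved from -0.38, -0.44 and -0.35 to -0.15, -0.20 and 0.03 with the trend removed. Pofut1 and Neurl1b did not rise, at -0.53 and -0.25. In 5 of them both cko libraries were below all Ctrl libraries, and in 1, Mib1, they were above, against 13.7% and 15.8% of all genes. Pofut1, which adds O-fucose to Notch, had 35.4 and 35.4 CPM in cko a and b, against 47.8, 50.7 and 46.7 CPM in Ctrl a, b and c (log2 fold change -0.45, SE 0.19, edgeR adjusted p = 0.448). Neurl1a, a ubiquitin ligase, had 32.2 and 49.7 CPM in cko a and b, against 66.3, 56.6 and 65.6 CPM in Ctrl a, b and c. Neither pair of groups overlapped. The log2 fold change of Neurl1a was -0.62 (SE 0.23, edgeR adjusted p = 0.433) and -0.15 with the length and GC trend removed, and it was -0.34 without cko a.

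The 10 proteases that cleave Notch were above 0 in 6 cases and below in 4, with a median of 0.16. At an unadjusted p below 0.05 there were 3, all lower, against 5.36% of all genes. Another 3, Adam10, Adam17 and Aph1c, had both cko libraries above all Ctrl libraries with log2 fold changes of 0.29, 0.29 and 0.33. That arrangement was found in 15.8% of all genes tested. With the length and GC trend removed, the values of Adam10, Adam17 and Aph1c were 0.15, 0.11 and 0.13. Aph1a, a subunit of gamma-secretase, had 30.9 and 35.2 CPM in cko a and b, against 46.2, 45 and 52 CPM in Ctrl a, b and c (log2 fold change -0.53, SE 0.20, edgeR adjusted p = 0.438). Psenen, another subunit, had 51.1 and 41.8 CPM in cko a and b, against 69.3, 55.7 and 69.8 CPM in Ctrl a, b and c. Furin, which cuts the receptor on its way to the surface, had 42.6 and 69.9 CPM in cko a and b, against 83.2, 84.7 and 74.1 CPM in Ctrl a, b and c. For Aph1a, Psenen and Furin the cko libraries were below the Ctrl libraries, an arrangement found in 13.7% of all genes tested. The log2 fold changes of Psenen and Furin were -0.48 (SE 0.20, edgeR adjusted p = 0.443) and -0.52 (SE 0.23, edgeR adjusted p = 0.454). With the length and GC trend removed they were -0.15 and -0.29, and Furin was at -0.21 without cko a.

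In the nuclear complex (15 tested, 9 above 0 and 6 below, median 0.14), the gene at an unadjusted p below 0.05 was Ncor1, a corepressor that binds Rbpj. It had 253 and 293 CPM in cko a and b, against 164, 244 and 136 CPM in Ctrl a, b and c (log2 fold change 0.59, SE 0.25, edgeR adjusted p = 0.443). Both cko libraries were above all Ctrl libraries, Ctrl b by a small step. Among 13 inhibitors and turnover genes, 8 were above 0 and 5 below, with a median of 0.12. Lnx2, a ubiquitin ligase that binds Numb, had 13.5 and 17.3 CPM in cko a and b, against 10.9, 11 and 8.62 CPM in Ctrl a, b and c, with no overlap (log2 fold change 0.60, SE 0.24, edgeR adjusted p = 0.440). Dtx3l, of the Deltex family, had 2.05 and 4.41 CPM in cko a and b, against 1.10, 2.22 and 1.15 CPM in Ctrl a, b and c, and its groups overlapped (log2 fold change 1.11, SE 0.42, edgeR adjusted p = 0.439, and 0.45 without cko b).

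Of the 11 other Hes and Hey genes and targets tested, 4 were above 0 and 7 below, with a median of -0.12. Bhlhe40, a basic helix-loop-helix repressor, had 5.83 and 4.87 CPM in cko a and b, against 2.10, 4.05 and 3.18 CPM in Ctrl a, b and c. The groups did not overlap (log2 fold change 0.78, SE 0.32, edgeR adjusted p = 0.443). Of the 6 proneural genes that Hes proteins repress, 2 were above 0 and 4 below, with a median of -0.37, and none was at an unadjusted p below 0.05. Neurod4, the most abundant of them, had 1075 and 851 CPM in cko a and b, against 758, 776 and 874 CPM in Ctrl a, b and c. Its groups overlapped through Ctrl c (log2 fold change 0.26, SE 0.22, edgeR adjusted p = 0.645, and 0.08 without cko a).

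**Figure D5:**
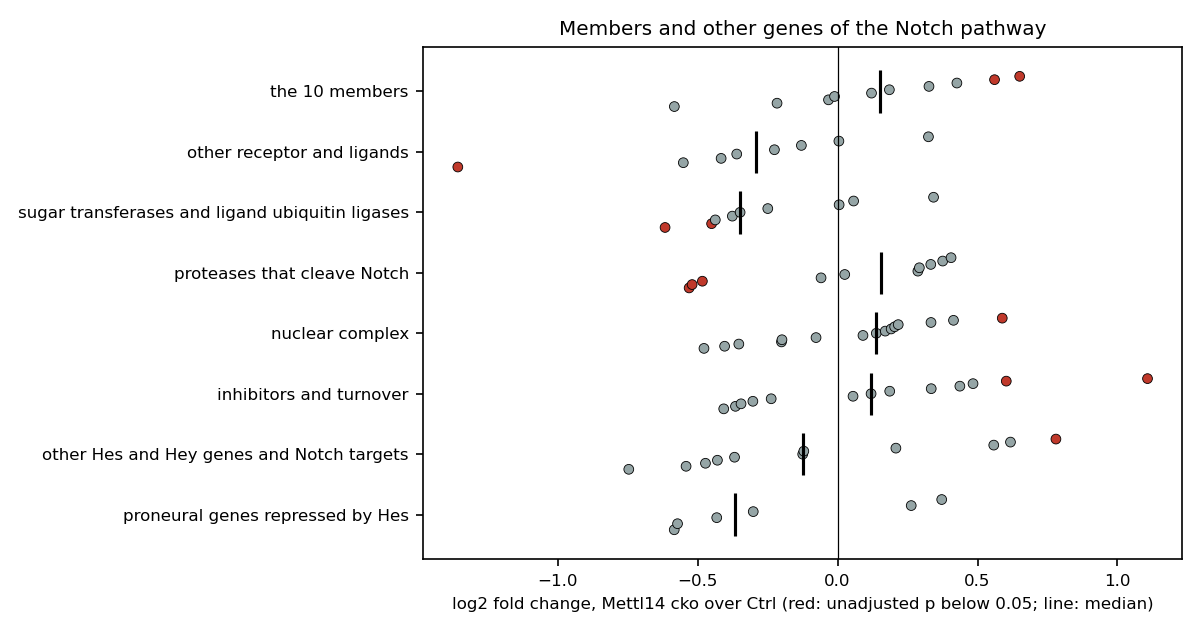
Log2 fold change, cko over Ctrl (horizontal axis), of the members and of each pathway list, 1 point per gene, red where the unadjusted p was below 0.05, with the list median as a vertical line. The medians run from -0.37 for the proneural genes to 0.16 for the proteases.

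Müller glia markers summed to 2097 and 1937 CPM in cko a and b, against 1958, 2262 and 1532 CPM in Ctrl a, b and c, and those of astrocytes to 116 and 103 CPM in cko a and b, against 111, 93.5 and 120 CPM in Ctrl a, b and c. Both sets of groups overlapped. Connective tissue markers summed to 8.82 and 10.3 CPM in cko a and b, against 12, 23.4 and 52.3 CPM in Ctrl a, b and c. No gene of the marker lists was at 0 in every library, and 6 of the 9 lens markers tested were called lower by edgeR. The part of these cells in the values of the members was not tested. Several members overlap a gene on the opposite strand, and without a stated strand setting the reads of the overlap cannot be told apart. The overlapping genes had 195 reads over the 5 libraries for 0610009E02Rik at Notch1, 186 for A930024N18Rik at Dll1, 257 for Gm14207 at Dll4, 57 for Gm20421 at Hes5 and 12 for Gm17276 at Notch3. Gm38287, which covers 2051 of the 2582 exon bases of Nrarp, had 0 reads, and how reads in that overlap were assigned is not known.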

How the data were processed

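Raw, unnormalized read counts for 43432 Ensembl gene IDs in 5 libraries were deposited by the authors as 1 table. Per the labels' protocols, RNA came from a TRIzol extraction and libraries from a NEBNext Ultra kit. The submitters' processing notes name CASAVA, HISAT2, featureCounts and the build mm10. Versions, annotation and strand setting: not given in the sources used here.

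Symbols matched 42462 IDs. Coordinates, merged exons and transcripts (1 per gene, for 84.8% of the tested genes) are from GENCODE M21 on GRCm38, the assembly of mm10, and are 1-based. Groups follow the titles. A chi-square of the counts between libraries was at least 26.7 per degree of freedom in every pair, so each library was counted as a sample.

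edgeR 4.0.16 in R 4.3.3 kept 17039 genes with filterByExpr (minimum count 10, minimum total 15), scaled them by TMM and compared the groups by a quasi-likelihood F test with no covariate, Benjamini-Hochberg adjusted over all genes and called below 0.05. The SE is the log2 fold change over the square root of F. Log2 CPM used a prior count of 2, and the biological coefficient of variation was 0.216. In 5 sets of simulated counts with 200 changed genes among 17039, edgeR recovered 36.4% of 2-fold and 94.2% of 4-fold changes, and 5.95% of its calls were false. Alternatives included DESeq2 1.42.0 and limma 3.58.1. In a fit added later, each library's loess trend (span 0.3) of log2 counts on transcript length and GC was removed as an offset.

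All 10 members are named. In other pathway lists the genes with an unadjusted p below 0.05 are named, up to 4 a list, or else the most abundant one. For members spanning at least 1 on the log2 scale the 3 nearest genes are named. The members and lists were chosen with earlier results of these data known. The letters in the titles are not stated to pair libraries.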

Additional observations from a re-analysis of the deposited data

How the results depend on the processing

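No member was called under any of the 16 alternatives. Of 160 values of the members, 142 kept their direction and 18 reversed. Jag1, Hes1, Hes5, Hey1 and Nrarp never reversed, and the lowest edgeR adjusted p, 0.139, was that of Hes5 without cko b. With cko a or cko b left out, the spread comes from the Ctrl libraries alone and the lone cko library is assumed to vary like them. The 11 other named pathway genes kept direction and stayed uncalled in 176 of 176 values, but leaving out cko a or cko b moved Neurl1a, Furin, Dtx3l and Neurod4 by over 1.5 times. In counts simulated for this comparison, edgeR recovered 36.4% of 2-fold changes, so a difference of that size in a single member may go uncalled. That share is an average over genes of many levels, in counts simulated without the trend with length and GC. It is not the share for a given member.

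The median log2 fold change of the members was 0.15, and with 1 library left out it ran from -0.38 (without cko b) to 0.48 (without cko a). Leaving out 1 library gave -1.12 to 0.61 for Notch1, -0.44 to 0.82 for Notch2, -0.91 to 0.79 for Notch3, -0.36 to 0.48 for Dll1 and -0.29 to 0.27 for Dll4. For Notch1 to Dll1 the lowest value came without cko b and the highest without cko a. For Dll4 the lowest came without Ctrl c and the highest without Ctrl b. With library totals in place of TMM the log2 fold change was 0.064 for Notch1 and 0.014 for Dll4. With limma-voom it was -0.036 for Notch3 and 0.023 for Dll4. The next 2 alternatives were chosen after seeing the data. With a covariate for sex (as the data show it) it was -0.092 for Notch3 and 0.10 for Dll4, and without the trend with length and GC it was 0.045 for Notch1 and 0.13 for Dll4. The cause was not tested.

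With the letters of the titles as a replicate block, the log2 fold change was -0.089 for Notch3 and -0.040 for Dll1, the median of the members was -0.06, and 39 genes were called instead of 17. The labels do not say that the letters pair the libraries. The correlation of the deviations was -0.00676 for the a libraries and 0.149 for the b libraries.

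Over all genes, the 17 calls became 11 with library totals, 262 with no filter on low counts, 85 with DESeq2, 9 with sex as a covariate and 11 at an adjusted p below 0.01. With 1 library left out they ran from 0 (without cko b, where 2210 genes had an edgeR p below 0.05 before adjustment) to 45 (without Ctrl b). The cause was not tested.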
